A study of Mus musculus with 6 samples.

Results

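The 9 genes Bmpr2, Tgfbr1, Tgfbr2, Smad1, Smad2, Smad3, Smad4, Smad5 and Thbs1, which encode receptors, signal transducers and a matrix activator of the TGF-beta and BMP pathways, were followed through every probe that the array holds for them. Probes were matched to genes by RefSeq accession, without use of any signal. This gave 15 of the 55681 probes and 9 of the 19897 genes matched, with 2 probes each for 6 genes and 1 probe each for Bmpr2, Smad2 and Thbs1. The levels come from 1-colour microarrays hybridised with RNA of spinal cord cells, sorted at stage E12.5 of mouse embryonic development. All embryos carried Hb9::GFP, a reporter that marks spinal motor neurons through the promoter of the homeodomain gene Hb9. The groups were GFP-on motor neurons labelled mir-17-92 -/- (2 arrays), GFP-on motor neurons labelled wild type (2 arrays), GFP-off cells labelled mir-17-92 -/- (1 array) and GFP-off cells labelled wild type (1 array). GFP-off cells are everything else in the cord, so they mix neurons, progenitors and non-neural cells. The sources used here do not say how many embryos went into an array or whether replicates came from separate embryos. The p-values therefore rest on the spread between these arrays, which the test partly pools over all probes.

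TGF-beta and BMP ligands bring together type II receptors, such as Tgfbr2 and Bmpr2, and type I receptors, such as Tgfbr1, which phosphorylate receptor-activated Smads. Smad2 and Smad3 carry the TGF-beta and activin signal and Smad1 and Smad5 the BMP signal. Both sets join Smad4, the common partner, to act on genes in the nucleus. Thbs1, the secreted matrix protein thrombospondin 1, can release TGF-beta from its latent complex. In the embryonic spinal cord, BMPs from the roof plate pattern the dorsal side. Tgfbr2, Smad2, Smad4, Bmpr2 and Thbs1 have been reported in other cells as targets of the mir-17-92 microRNAs, which lower the level or translation of the transcripts they bind.

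The comparison of genotype labels turns on the 6 mature microRNAs of the cluster, shown here because their seeds set which transcripts they can bind. They lie on the plus strand at chr14:115043684-115044496 (RefSeq, GRCm38.p6). The sequences are written 5′ to 3′ with the seed, bases 2 to 8, in capitals.
mmu-miR-17-5p: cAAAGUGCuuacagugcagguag
mmu-miR-20a-5p: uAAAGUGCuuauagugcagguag
mmu-miR-18a-5p: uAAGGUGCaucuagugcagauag
mmu-miR-19a-3p: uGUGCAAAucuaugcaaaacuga
mmu-miR-19b-3p: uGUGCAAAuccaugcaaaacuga
mmu-miR-92a-3p: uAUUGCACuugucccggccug

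The 6 microRNAs thus had 4 seeds. The seed of miR-17-5p and miR-20a-5p was the same, as was that of miR-19a-3p and miR-19b-3p. The array does not measure mature microRNAs. Its 1 probe for the host transcript Mir17hg had log2 signals of 4.55 and 4.78 in motor neurons of the knockout label, against -2.38 (not well above background) and 2.73 in those of the wild-type label. The GFP-off arrays gave 4.62 for the knockout label and -1.23 for the wild-type label. The signal was therefore higher under the knockout label, by 4.49 ± 1.29 on the log2 scale in motor neurons (SE, n = 2 against 2, limma adjusted p = 0.0361). The annotated start of this transcript (base 115044390 of chromosome 14, GRCm38.p6) lies downstream of 5 of the 6 mature sequences and upstream only of miR-92a-3p. Whether the probe lies in the deleted part was not known, so it does not check the labels, and every genotype below is named as labelled.

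All values are log2 processed signals relative to the 75th percentile of the same array, so a level can be compared between arrays for 1 probe but not between probes. That percentile was 59.9 and 506 in replicates 1 and 2 of the knockout-labelled motor neurons, 48.5 and 64.5 in those of the wild-type label, and 549.9 and 340.5 in GFP-off cells of the knockout and the wild-type label. Between 41.0% and 44.0% of probe spots were well above background on knockout-labelled motor neuron replicate 1 and both wild-type-labelled motor neuron arrays, against 58.9% to 62.3% on the other 3. Over the 19075 probes above background on all 6 arrays, wild-type-labelled motor neuron replicate 1 correlated with the 4 arrays outside its group at 0.844 to 0.903, and replicate 2 at 0.736 to 0.806. Those 4 arrays correlated with each other at 0.930 to 0.984, so the wild-type-labelled motor neuron arrays stood apart. Row 1 of the slide held both motor neuron arrays of the knockout label and row 2 all others, so genotype label and row cannot be told apart in motor neurons. The summed level of 8 motor neuron markers was 33.5 and 39.9 times the 75th percentile in motor neurons of the knockout label, 12.0 and 8.14 in those of the wild-type label, and 5.19 and 3.42 in GFP-off cells of the knockout and the wild-type label. All 8 were above background in motor neurons of the knockout label and 7 in those of the wild-type label, where the choline transporter gene Slc5a7 was not. The gap between labels came mainly from Prph (log2 levels of 3.97 and 4.04 under the knockout label, 0.11 and -0.99 under the wild-type label), Isl1 and Isl2. The levels of Chat (-0.47 and -0.79 under the knockout label, -0.66 and 0.082 under the wild-type label), Lhx3 and Slc18a3 overlapped between labels, and those of Lhx4 were -0.43 and 0.12 under the knockout label and 0.22 and 0.15 under the wild-type label. Not every marker was higher in wild-type-labelled GFP-on cells than in GFP-off cells. Isl1 was at 0.049 and 0.12 in the former, against 1.04 and 0.092 in GFP-off cells of the knockout and the wild-type label. The GFP-off levels of Prph, -0.13 and -0.55 in the same order, lay between its wild-type-labelled GFP-on values. Isl2 overlapped too, and Slc5a7 was above background in GFP-off cells of either label. Chat, Lhx3, Lhx4 and Slc18a3 were higher in every GFP-on array than in both GFP-off arrays.

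All 15 probes passed the filter on dim probes (a signal well above background in 2 or more of 6 arrays). All 15 were above background on both GFP-off arrays, and 8 probes of 7 genes were above background on every array. Smad1 and Thbs1 had no probe of that kind.

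**Figure D1:**
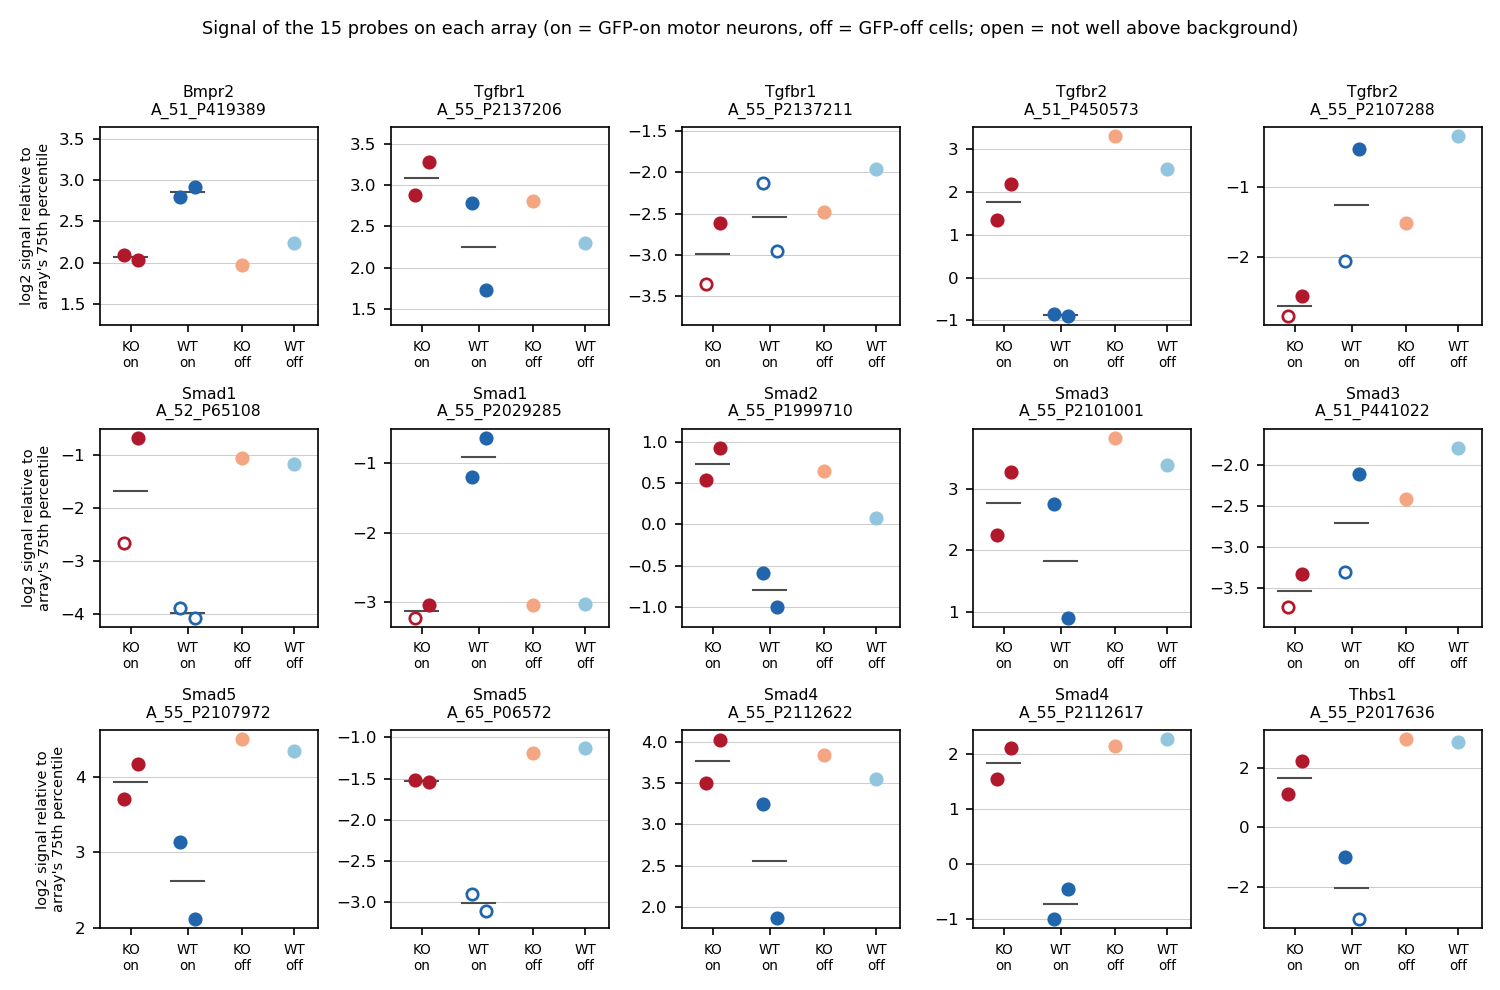
Log2 signal relative to the array's 75th percentile for each of the 15 probes (1 panel each, own y axis), with 1 point per array for GFP-on (on) and GFP-off (off) cells by genotype label (KO, WT), group means of 2 arrays as bars, and open points where the spot was not well above background. For Tgfbr2 A_51_P450573, Smad4 A_55_P2112617 and Thbs1, the knockout-labelled motor neuron points lie above both wild-type-labelled ones and below both GFP-off points.

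The comparison of genotype labels in motor neurons bears on what loss of the microRNAs does to these transcripts. Tgfbr2, Smad4 and Thbs1 each had a probe that rose under the knockout label, by 2.65, 2.56 and 3.73 on the log2 scale, while Smad1 had 1 probe that rose and 1 that fell. Of the 15 probes, 4 rose, 1 fell and 10 did not pass the test (limma, adjusted p under 0.05 over 33264 probes). Over all probes 24.8% were called, 10.6% higher and 14.2% lower. The members' median log2 difference was 1.21 and that of all probes -0.20, so each difference lies 0.20 higher when set against the median probe.

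Among the receptors, Tgfbr2, the type II receptor that binds TGF-beta, was measured by a pair of probes whose differences had opposite signs. On A_51_P450573 the log2 signal was 1.36 and 2.19 in motor neurons of the knockout label and -0.85 and -0.90 in those of the wild-type label. The groups did not overlap, and the difference was 2.65 ± 0.54 (SE, n = 2 against 2, limma adjusted p = 0.0149). With normexp background correction it was 1.88 and did not pass (limma adjusted p = 0.0547). The second probe, A_55_P2107288, gave -2.85 (not well above background) and -2.56 under the knockout label, and -2.07 (not well above background) and -0.46 under the wild-type label. There the knockout-labelled arrays were the lower pair, with a difference of -1.44 ± 0.63 that did not pass (adjusted p = 0.118). The rise of Tgfbr2 thus rests on 1 of its 2 probes.

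Bmpr2, the BMP type II receptor and a reported target, was above background on every array. Its log2 signal was 2.09 and 2.03 in motor neurons of the knockout label and 2.80 and 2.91 in those of the wild-type label. The knockout-labelled pair was lower without overlap, but the difference of -0.79 ± 0.51 did not pass (adjusted p = 0.264). Tgfbr1, the type I receptor that pairs with Tgfbr2, gave 2.89 and 3.28 under the knockout label and 2.78 and 1.73 under the wild-type label with probe A_55_P2137206. These groups did not overlap either, with a difference of 0.83 ± 0.57 (adjusted p = 0.297). Its other probe, A_55_P2137211, was above background on 1 of the 4 motor neuron arrays and gave -0.45 ± 0.57, a value that turned positive when array medians were subtracted (0.19) or arrays were quantile-normalized (0.079).

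Among the TGF-beta Smads, Smad2 had log2 signals of 0.54 and 0.92 in motor neurons of the knockout label and -0.60 and -1.0 in those of the wild-type label. The groups were apart by more than their ranges, and the difference of 1.53 ± 0.52 did not pass (adjusted p = 0.0585). It passed when only probes above background on all arrays were tested (adjusted p = 0.0265). Smad3, the other Smad phosphorylated by Tgfbr1, gave 2.25 and 3.27 under the knockout label and 2.76 and 0.91 under the wild-type label with A_55_P2101001. Here the groups overlapped, and the difference was 0.93 ± 0.70 (adjusted p = 0.344). The dimmer Smad3 probe, A_51_P441022, pointed the other way, with -0.82 ± 0.58 (adjusted p = 0.312).

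Among the BMP Smads, the pair of Smad1 probes were called in opposite directions. On A_52_P65108 the log2 signal was -2.66 (not well above background) and -0.67 in motor neurons of the knockout label and -3.88 and -4.07 in those of the wild-type label, both not well above background. The measured difference was 2.31 ± 0.69 (SE, n = 2 against 2, limma adjusted p = 0.0395), and 0.25 with normexp background correction. No fold can be given, since of these arrays only knockout-labelled replicate 2 was above background. Without replicate 2 the difference was 1.31. On A_55_P2029285 the signal was -3.22 (not well above background) and -3.04 under the knockout label and -1.19 and -0.63 under the wild-type label, and fell by 2.22 (SE 0.52, n = 2 against 2, adjusted p = 0.0211). No direction can therefore be given for Smad1.

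Smad5, its close relative, pointed the same way on both probes without passing. A_55_P2107972 gave 3.71 and 4.16 under the knockout label and 3.13 and 2.11 under the wild-type label, a difference of 1.31 ± 0.57 (adjusted p = 0.113). A_65_P06572 gave -1.52 and -1.54 against -2.90 and -3.11, the wild-type-labelled pair not well above background, with adjusted p = 0.0604, which did not pass. On neither Smad5 probe did the groups overlap, and with normexp background correction the difference on A_65_P06572 was -0.030.

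Smad4, the partner that both branches share and a reported target, had A_55_P2112617 at 1.54 and 2.11 in motor neurons of the knockout label and -1.01 and -0.46 in those of the wild-type label. All 4 values were above background, the groups did not overlap, and the difference was 2.56 ± 0.54 (SE, n = 2 against 2, adjusted p = 0.0159). With normexp background correction it was 1.67 and did not pass (limma adjusted p = 0.0998). The other Smad4 probe, A_55_P2112622, gave 3.51 and 4.02 under the knockout label and 3.25 and 1.86 under the wild-type label. It had the same sign and no overlap, with a smaller difference of 1.21 ± 0.61 that did not pass (adjusted p = 0.165).

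Thbs1 is the matrix activator. Its log2 signal was 1.12 and 2.23 in motor neurons of the knockout label and -1.01 and -3.10 in those of the wild-type label, the last not well above background. The groups did not overlap, and the difference was 3.73 ± 0.75 (SE, n = 2 against 2, adjusted p = 0.0143). The size is approximate, since it ranged from 2.68 to 4.78 with 1 motor neuron array left out, the lowest without the wild-type-labelled array that was below background. With normexp background correction the difference was 2.04. Thbs1 and Tgfbr2 are also made by blood vessel, connective tissue and blood-derived cells, whose markers are given with the GFP-off comparison.

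**Figure D2:**
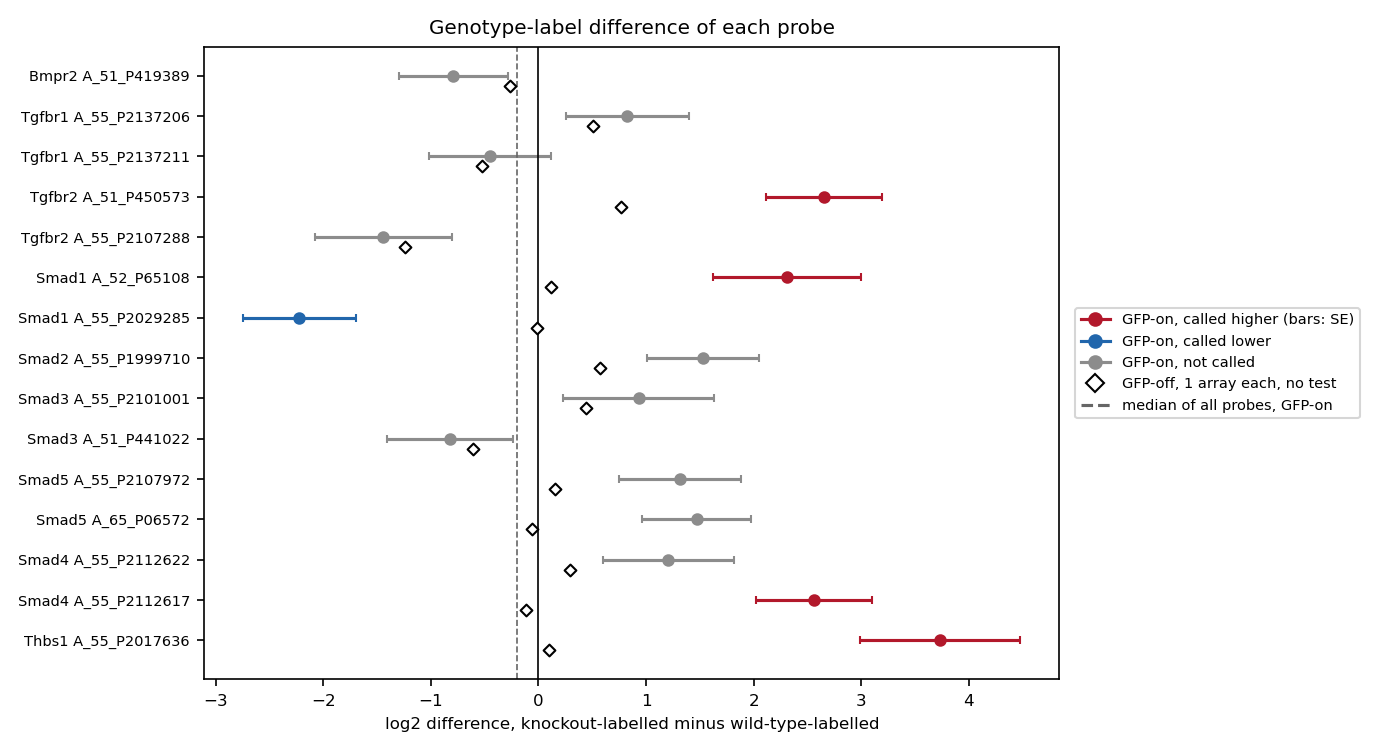
Log2 difference of knockout-labelled minus wild-type-labelled cells for each probe, in GFP-on motor neurons (circles, bars are SE from limma, 2 arrays against 2) and in GFP-off cells (diamonds, 1 array each, no test). In motor neurons 4 probes are called higher and 1 lower, and the dashed line marks the median of all probes, -0.20.

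Without overlap between the groups, 9 probes were higher and 4 lower under the knockout label. Of all probes, 29.8% were higher and 39.7% lower in that sense, 69.5% together. Of the 8 probes above background on all arrays, 7 had a positive difference, the exception being Bmpr2. Of all 33264 probes tested, dim ones included, 44.9% did. That share was not computed for the 19075 probes above background on all arrays, whose median log2 difference was -0.07. Of the 6 genes with 2 probes, Smad4 and Smad5 had the same sign on both, and Tgfbr1, Tgfbr2, Smad1 and Smad3 did not. Leaving out knockout-labelled replicate 2, the brighter array of its pair, left Thbs1 as the only call, and leaving out wild-type-labelled replicate 1 gave 6 higher and 2 lower.

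In GFP-off cells, with 1 array per genotype label and so no test, the 15 log2 differences had a median of 0.10, with -0.03 over all probes. No probe was over 2-fold higher under the knockout label, where 2.69% of all probes were, and only the second Tgfbr2 probe was over 2-fold lower (-1.24), where 5.99% were. Thbs1 gave 2.97 under the knockout label and 2.87 under the wild-type label, and Smad4 A_55_P2112617 gave 2.15 and 2.26 in the same order. In GFP-off cells these probes thus differed by less than the motor neuron replicates of either label did. The difference between the genotype effects in the sorted fractions was tested as an interaction, with the lone GFP-off arrays assumed to vary like the motor neuron groups. It passed for 0 of the 15 probes and for 0% of all probes (limma). At an unadjusted p under 0.05 were 3 of the 15, as were 2807 of all 33264. The 3 were Thbs1 (3.64 ± 1.29, adjusted p = 0.552), Smad4 A_55_P2112617 (2.67 ± 0.93, adjusted p = 0.548) and Smad1 A_55_P2029285 (-2.21 ± 0.91, adjusted p = 0.578).

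Set against the GFP-off fraction, motor neurons can be compared with the rest of the cord. No member probe passed the test. Of the 15 log2 differences, 12 were negative, as were 54.1% of those of all probes. Without the wild-type-labelled GFP-off array, only the knockout-labelled arrays set the estimate. Smad2 then turned to 0.079 and Smad4 came to -0.32 and -0.076. With normexp background correction, 4 of these 12 were positive (Tgfbr1 A_55_P2137211, Smad1 A_52_P65108, Smad3 A_51_P441022 and Smad5 A_65_P06572). The call count was 0 (limma), where 0.854% of all probes were called, 0.649% higher and 0.204% lower. At an unadjusted p under 0.05 were 4 of the 15 probes, as were 6342 of all 33264. Within each genotype label, the first motor neuron replicate and the GFP-off array share a tag whose meaning is not given in the sources used here. With only those arrays, as pairs, 3 member probes were lower (Tgfbr2 A_51_P450573, Thbs1 and Smad1 A_52_P65108; 2.53% of all probes). With the replicate number as a block, 2 were lower (Tgfbr2 A_51_P450573, adjusted p = 0.0326, and Thbs1, adjusted p = 0.0499; 1.12% of all probes). All 4 motor neuron arrays lay below both GFP-off arrays for 6 probes (14.8% of all probes) and above both for 0 (9.42%). The median log2 difference was -1.09 for the members and -0.09 for all probes. Since the samples are sorted bulk, fewer cells of a type and less RNA per cell cannot be told apart here.

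Thbs1 had the most negative value, with 1.12 and 2.23 in motor neurons of the knockout label and -1.01 and -3.10 in those of the wild-type label, against 2.97 and 2.87 in GFP-off cells of the knockout and the wild-type label. Every motor neuron array was below both GFP-off arrays, and the difference was -3.11 ± 0.86 (SE, n = 4 against 2, adjusted p = 0.110). Tgfbr2 A_51_P450573 gave 3.31 and 2.54 in GFP-off cells of the knockout and the wild-type label, also above all 4 motor neuron arrays, with -2.48 ± 0.56 (adjusted p = 0.0689). It was called lower in motor neurons when only probes above background on all arrays were tested (adjusted p = 0.0189). Smad4 A_55_P2112617 (-1.66 ± 0.63, adjusted p = 0.204) and Smad1 A_52_P65108 (-1.71 ± 0.68, adjusted p = 0.223) were the other probes at an unadjusted p under 0.05.

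The remaining Smads had smaller differences that did not pass. Smad5 gave -1.14 ± 0.52 and -1.11 ± 0.50 on its probes, and Smad3 gave -1.31 ± 0.61 and -1.01 ± 0.50. Smad2 gave -0.40 ± 0.48 and Smad4 A_55_P2112622 -0.53 ± 0.54, while Smad1 A_55_P2029285 gave 1.0 ± 0.57. The dimmer probes of Tgfbr1 and Tgfbr2 gave -0.54 ± 0.49 and -1.09 ± 0.54. The receptors Bmpr2 (0.36 ± 0.45) and Tgfbr1 (0.12 ± 0.49 on A_55_P2137206) had the differences nearest to 0.

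**Figure D3:**
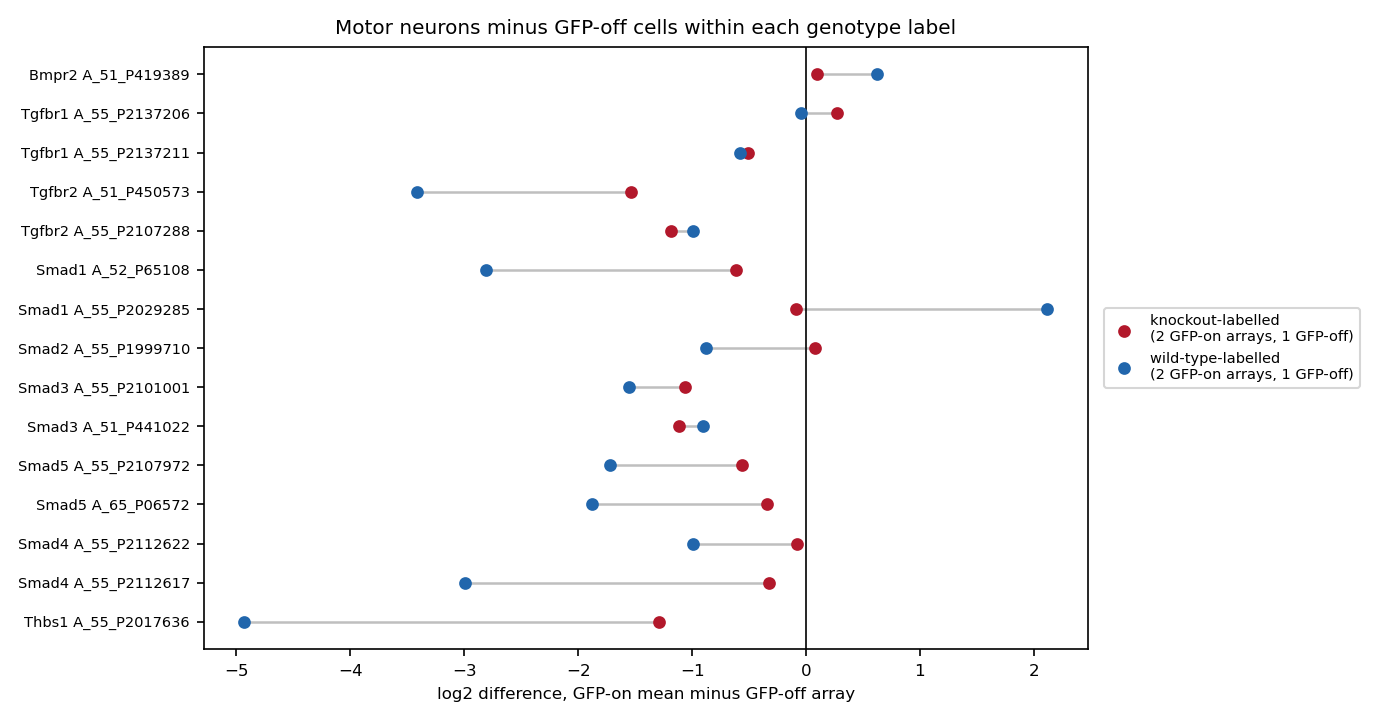
Log2 difference of the GFP-on mean (2 arrays) minus the GFP-off array for each probe, within the knockout-labelled (red) and the wild-type-labelled arrays (blue). For Thbs1 the difference is -1.29 in the knockout-labelled and -4.93 in the wild-type-labelled arrays.

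Read within each genotype label, the values were unequal. Within the knockout-labelled arrays, the log2 difference of motor neurons from GFP-off cells was -1.29 for Thbs1, -1.53 for Tgfbr2 A_51_P450573 and -0.32 for Smad4 A_55_P2112617. Within the wild-type-labelled arrays the values for those probes were -4.93, -3.42 and -3.00. Fitted alone, in fits added after the data were seen, the knockout-labelled arrays gave 0 calls among the 15 probes and the wild-type-labelled arrays gave 4 lower calls, for Thbs1, these Tgfbr2 and Smad4 probes and Smad1 A_52_P65108, with a spread that limma took as equal for all probes (1 residual degree of freedom). In the same fits 0% and 3.26% of all probes were called lower. The difference between the labels is the interaction above, which passed for none. For 11 of the 15 probes the wild-type-labelled motor neuron mean lay farther than the knockout-labelled one from the mean of the GFP-off arrays, as it did for 68.8% of all probes.

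Markers of other cells were read beside these results, as sums over each list. The summed level of 7 microglia and macrophage markers was 16.1 and 17.2 times the 75th percentile in motor neurons of the knockout label, 4.17 and 2.80 in those of the wild-type label, and 15.4 and 5.28 in GFP-off cells of the knockout and the wild-type label. In both motor neuron replicates of the wild-type label Tyrobp, Mrc1 and C1qa of that list were not above background, and 7 of 7 were above it on every other array. For 3 platelet markers the sums were 5.80 and 8.16, then 1.90 and 0.893, then 6.92 and 2.16, in the same order of groups. The platelet sums were mostly Pf4. Itga2b was above background on none of the 6 arrays. Gp9 was above it only on replicate 2 of the knockout-labelled motor neurons and on the knockout-labelled GFP-off array. For 5 red blood cell markers, 5 of 5 above background on every array, the sums were 229 and 76.0, then 40.2 and 46.9, then 628 and 539.5. These sums were mostly Hba-a1, which like Hba-x and Hbb-bh1 was higher in both knockout-labelled motor neuron replicates than in the wild-type-labelled ones. Alas2 (-0.41 and -1.35 under the knockout label, -0.31 and 0.023 under the wild-type label) and Slc4a1 were lower. For 6 mesenchyme markers, 6 of 6 above background on every array, they were 485 and 409, then 389 and 303, then 925 and 660.5. For 5 endothelial markers they were 8.08 and 13.3, then 15.6 and 115, then 16.1 and 24.5; 4 and 5 of these were above background in motor neurons of the knockout label and 2 and 4 in those of the wild-type label, where Cdh5 was not. That sum was mostly Kdr, whose log2 level was 6.83 in replicate 2 of the wild-type-labelled motor neurons. Like Kdr, Pecam1 was lower in motor neurons of the knockout label (-2.95, not well above background, and -2.92) than in those of the wild-type label (-1.44 and -1.44). Tie1 overlapped between labels. Cdh5 and Cldn5 went the other way, with Cdh5 at -0.31 and 1.24 in motor neurons of the knockout label and -2.33 and -4.29 in those of the wild-type label. For 5 neural progenitor markers the sums were 47.4 and 55.9, then 30.3 and 17.9, then 24.9 and 24.7. Fabp7, Hes5 and Sox2 were higher and Nes lower in both knockout-labelled motor neuron replicates than in the wild-type-labelled ones. Pax6 overlapped between labels. For 4 neural crest and Schwann lineage markers, 4 of 4 above background on every array, the sums were 51.9 and 24.5, then 27.7 and 24.9, then 2.74 and 3.28, so every GFP-on array was above both GFP-off arrays. The part of these cells in the values of Thbs1, Tgfbr2 and the Smads was not tested.

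The rest of the pathway was read from a list of 90 further genes with 117 probes, of which 102 probes of 83 genes passed the filter. In motor neurons 11 of these probes rose under the knockout label, 9 fell and 82 did not pass, with a median log2 difference of -0.02. Over all probes 10.6% rose and 14.2% fell, the shares against which the counts by role below are to be read. Of 27 ligand probes, 2 rose and 4 fell. Inhba, which encodes an activin subunit, was at least 2.33-fold higher (adjusted p = 0.0137). Tgfb1, the TGF-beta 1 ligand, gave -2.25 and -2.51 under the knockout label and -3.82 and -4.28 under the wild-type label, where it was not above background, so that no fold can be given (adjusted p = 0.0453). Bmp1, a protease named among the BMPs that releases growth factors from the matrix, fell by 2.72 on 1 of 3 probes, and the ligand genes Bmp8a and Gdf3 (1 of 2 probes) fell by 2.27 and 2.09.

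Of 13 receptor probes, 3 rose and none fell. Tgfbr3, the co-receptor betaglycan, rose by 2.48 ± 0.64, with 1.83 and 1.26 under the knockout label and -0.12 and -1.75 under the wild-type label. Eng, the endothelial co-receptor endoglin, was at least 3.21-fold higher, and the activin receptor gene Acvr2a rose by 1.70 ± 0.54 on 1 of 2 probes. Of 12 probes for transcriptional targets, 3 rose and none fell. They were the inhibitors of DNA binding Id2 (2.48 ± 0.63), Id3 (2.20 ± 0.64) and Id4 (2.70 ± 0.52), which BMP signalling is known to induce. Id1, of the same family and list, had a difference of -0.10 ± 0.74 (adjusted p = 0.934). Id3 was at 1.46 and 2.67 in motor neurons of the knockout label, -0.71 and 0.43 in those of the wild-type label, and 3.52 and 3.55 in GFP-off cells of the knockout and the wild-type label. As for Thbs1, all motor neuron values of Id3 thus lay below both GFP-off values. For Id1, Id2 and Id4 this was not so. Id4 was at 1.40 and 1.91 in motor neurons of the knockout label. In GFP-off cells of the knockout and the wild-type label it was at 0.56 and 1.07.

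Of 22 probes for intracellular regulators, 1 rose and 4 fell. Zfyve16, an endosomal Smad partner, rose by 2.48 ± 0.56, with 1 of its 2 wild-type-labelled arrays not above background. The Smad corepressor gene Tgif2 decreased by 2.58 and 2.11 on 2 of 3 probes, the first of them not above background on 1 knockout-labelled array, and Skil decreased by 2.26 on 1 of 2 probes. Of 15 probes for secreted inhibitors, 1 rose and 1 fell. Sostdc1, a BMP antagonist, was at least 3.54-fold higher on 1 probe and gave 0.25 on the other, and Chrd, the BMP antagonist chordin, fell by 3.06, with 1 of its 2 knockout-labelled arrays not above background. Of 13 probes for latency and activation, Thbs2, a relative of Thbs1, was at least 2.81-fold higher and none fell. Between GFP-on and GFP-off cells, only Inhba passed, with a log2 difference of -3.39 ± 0.61 (adjusted p = 0.0405).

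**Figure D4:**
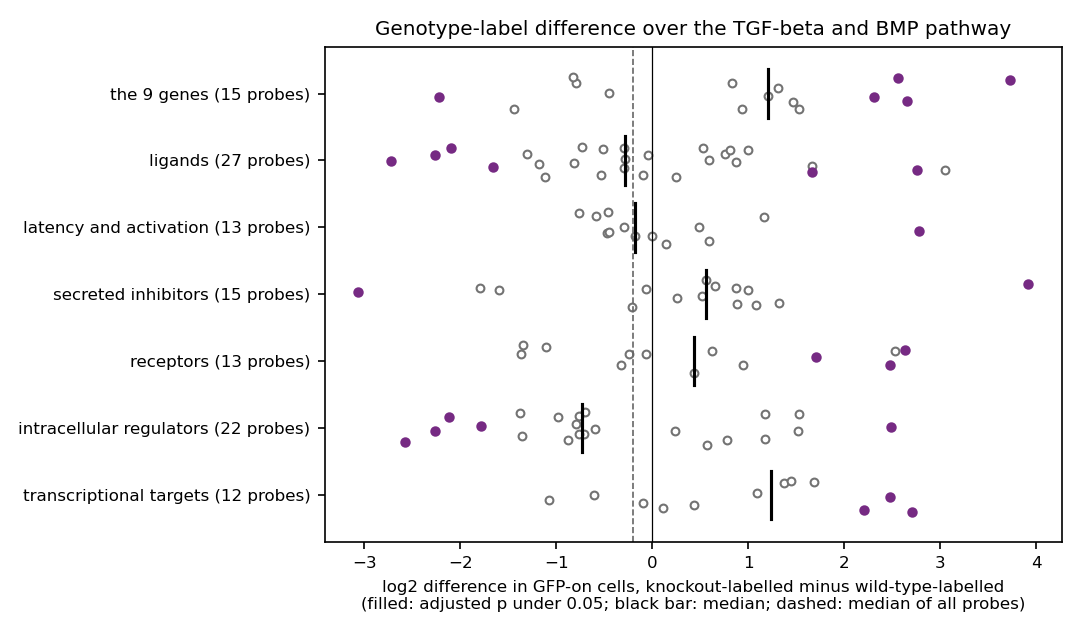
Log2 difference of knockout-labelled minus wild-type-labelled motor neurons (x axis) for the 15 probes of the 9 genes and for the 102 other pathway probes by role, with calls filled, medians as black bars and the median of all probes dashed. The medians are 1.21 for the 9 genes, 1.23 for transcriptional targets, 0.43 for receptors and -0.73 for intracellular regulators.

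The members had genes with a similar pattern over the 6 arrays, which share their scaling and the outlying wild-type-labelled motor neuron arrays; Smad1 and Thbs1 had no probe that could enter this comparison. Among 12573 named probes above background on all arrays, the nearest to the brightest probe of each gene by Pearson's r over the 6 arrays were Abtb1 for Bmpr2 (0.997), Tmem165 for Tgfbr2 (0.997), Kpna4 for Tgfbr1 (0.997), Fam98b for Smad2 (0.997), Snai2 for Smad3 (0.9998), Snu13 for Smad5 (0.9995) and Cdk19 for Smad4 (0.999).

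The start regions of Tgfbr2 and Bmpr2 are shown because these type II receptors had opposite differences in motor neurons, on 1 Tgfbr2 probe and on the Bmpr2 probe. Each window spans 250 bases before to 50 after the annotated start (RefSeq, GRCm38.p6), and such a window was available for 6 of the 9 genes. Capitals mark 2 motifs known for Smad binding, CAGAC on either strand (its reverse complement is GTCTG) and GGCGCC, which is its own reverse complement. Neither window shown holds both. Tgfbr2 lies on the minus strand at chr9:116175314-116175613 and Bmpr2 on the plus strand at chr1:59764029-59764328.
Tgfbr2: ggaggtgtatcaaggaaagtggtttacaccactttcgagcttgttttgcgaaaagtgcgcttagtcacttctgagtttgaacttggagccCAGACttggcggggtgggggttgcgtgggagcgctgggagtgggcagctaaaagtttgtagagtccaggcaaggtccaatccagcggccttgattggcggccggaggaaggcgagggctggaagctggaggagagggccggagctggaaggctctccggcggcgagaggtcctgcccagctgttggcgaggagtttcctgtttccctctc
Bmpr2: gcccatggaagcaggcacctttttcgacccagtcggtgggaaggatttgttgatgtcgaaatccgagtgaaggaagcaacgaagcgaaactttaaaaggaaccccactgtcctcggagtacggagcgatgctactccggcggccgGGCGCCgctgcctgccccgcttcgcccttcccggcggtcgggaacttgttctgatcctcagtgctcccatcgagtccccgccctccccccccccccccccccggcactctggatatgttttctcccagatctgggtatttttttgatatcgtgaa

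The Tgfbr2 window held 1 CAGAC and no GGCGCC, and the Bmpr2 window 1 GGCGCC and no CAGAC. Of the 32851 windows of this length, 49.6% held CAGAC and 11.9% held GGCGCC. Neither motif stood in the Smad1 or Smad3 window. Of the 3 Smad5 windows, 1 held CAGAC and 2 held GGCGCC, and each motif stood in 1 of the 2 Tgfbr1 windows. A match of letters is a description of the sequence only.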

How the data were processed

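Each array was one Cy3-labelled RNA sample. Scans were read with Agilent Feature Extraction, version 10.5.1.1 per the file headers and 9.1 per the submitters' processing notes. The processed signal of a spot is deposited as an intensity, background-subtracted and not scaled between arrays, with raw median spot and background intensities and flags of other kinds (above background, saturated, irregular). No spot was saturated. The authors' value table holds log2 values, which match log2 processed signals less the array's 75th percentile within 0.01, with no centring of genes.

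Here, log2 processed signals were averaged over the unflagged spots of a probe, and the array's 75th percentile over all probes was subtracted. Probes were named by RefSeq accession through a table of assembly GRCm38.p6 (26300 of 55681 matched). The file headers name mm9, so no probe coordinates are given. Testing required a signal well above background in 2 or more of 6 arrays (33264 probes), each probe on its own. Tests used limma 3.58.1 in R 4.3.3 (lmFit, eBayes) with Benjamini-Hochberg adjustment over all probes and a threshold of 0.05. Each probe's spread was moved toward a value shared by all probes. Bmpr2, with SDs of 0.044 and 0.083 in motor neurons of the knockout and the wild-type label, thus had an SE of 0.51. With normexp background correction, the SE of the genotype difference was the same for every member probe (0.62). The same SE for every member probe also arose without either knockout-labelled motor neuron array. The genotype and interaction tests came from 4 group means (2 residual degrees of freedom, from the motor neuron arrays alone), and the motor neuron test from an additive model with genotype label (3 residual degrees of freedom). An exact permutation test of 2 arrays against 2 cannot give a p below 0.333. The number of arrays limits the precision.

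Where all arrays of a group were not well above background, a fold is a lower bound: the other group's mean against the mean over the dim arrays of the higher of the probe's own signal and the lowest signal that the scanner software called above background. The steps were tested on simulated data. The members and lists were chosen with earlier results of these data known. Every member probe is named. Of the other pathway genes, up to 3 probes past the threshold and without overlap are named per role and direction, and for likeness of pattern the nearest gene.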

Additional observations from a re-analysis of the deposited data

How the results depend on the processing

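Between genotype labels in motor neurons, 4 member probes were called higher and 1 lower. Subtracting array medians gave 8 higher and 0 lower and moved the median of all probes to 0.44, with 73.9% of all calls higher instead of 42.7%. Quantile normalization gave 2 and 0 (80.1% of calls higher), normexp background correction 1 and 0 (67.8%), 1 probe per gene 3 and 0 (68.5%), and testing only probes above background on all 6 arrays 3 and 0. Over all probes, quantile normalization gave 1578 higher and 392 lower, and normexp 903 and 429. With 1 probe per gene 2354 and 1080 of 14918 were called, and with the filter for all 6 arrays 2559 and 3706 of 19075. Without a filter on dim probes, and with an additive model over all 6 arrays, limma called 0 and 0, as it did over all probes. At an unadjusted p under 0.05 the members then had 5 higher and 1 lower, and 5 higher and 2 lower. With 1 motor neuron array left out at a time, which probes were called varied. The differences ranged from 2.68 to 4.78 for Thbs1, 2.23 to 3.07 for Tgfbr2 A_51_P450573 and 2.28 to 2.84 for Smad4 A_55_P2112617. Those of Smad1 ranged from 1.31 to 3.31 on A_52_P65108 and from -2.50 to -1.94 on A_55_P2029285. Thbs1 lost its call under the additive model (adjusted p = 0.0857), without the filter (0.153) and under quantile normalization (0.0653). The cause of these changes was not tested. In GFP-off cells the members' median was 0.35 after subtracting array medians.

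For motor neurons against GFP-off cells, with 0 lower calls, the filter for all 6 arrays gave 1, the mean of within-genotype differences 2 and arrays paired by their shared tag 3. Over all probes, 182 of 19075 were called lower with that filter. Fits added after seeing the data gave 4 for the wild-type-labelled arrays alone and 0 for the knockout-labelled ones. Which member probes were called lower also depended on the array left out. Without knockout-labelled motor neuron replicate 2, the differences were -3.61 for Thbs1, -2.79 for Tgfbr2 A_51_P450573 and -2.29 for Smad1 A_52_P65108. Without its replicate 1 they were -3.13, -2.43 and -1.44. Same-numbered motor neuron arrays had deviations that correlated at -0.096, so the numbers were not read as pairing. With the replicate number as a block, member calls stayed at 4 higher and 1 lower between genotype labels and became 2 lower against GFP-off cells. A crossed block, added after seeing the data, gave 6 and 1. Over all probes, the block gave 3703 higher and 5501 lower between genotype labels, and the crossed block 4802 and 7016. The interaction was called for 0 member probes under each setting run.

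Some single log2 differences changed sign. Between genotype labels these were Tgfbr1 A_55_P2137211 with array medians subtracted (0.19) and quantile normalization (0.079), and Smad5 A_65_P06572 with normexp (-0.030). Against GFP-off cells, normexp turned Bmpr2 (-0.12), Tgfbr1 (-0.33 and 0.69), Smad1 A_52_P65108 (0.089), Smad3 A_51_P441022 (0.42) and Smad5 A_65_P06572 (0.054). Tgfbr1 A_55_P2137206 was -0.020 with medians subtracted and -0.044 in the wild-type-labelled arrays. The knockout-labelled arrays alone gave -0.091 for Smad1 A_55_P2029285 and 0.079 for Smad2. With 1 array left out, Tgfbr1 A_55_P2137206 ranged from -0.087 to 0.36, Smad1 A_55_P2029285 from -0.091 to 2.12 and Smad2 from -0.88 to 0.079. Without a GFP-off array, only the arrays of the other genotype label set the estimate. The limits for Smad1 and Smad2 are therefore the values of single labels and no separate result. Leaving out a GFP-off array for the interaction could not be fitted. Dim signals limit 7 of the 15 probes, which were below background on at least 1 array.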
